A study of Mus musculus with 8 samples.

Results

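The 10 genes described here belong to the response of cells to low oxygen and to the glycolytic programme that goes with it. They are the glucose transporters Slc2a1 and Slc2a3, the glycolytic enzymes Pgk1 and Ldha, the mitochondrial kinase Pdk1, the mitophagy receptor Bnip3, the growth factor Vegfa, the oxygen sensor Egln3, the mTORC1 inhibitor Ddit4 and the carbonic anhydrase Car9. They were taken by symbol from the expression table, which holds 20215 genes, and all 10 were found. The series measured RNA by sequencing in mouse embryonic stem cells (ESCs), which stay undifferentiated in medium with leukaemia inhibitory factor. It also measured embryoid bodies (EBs), the hanging-drop aggregates through which such cells form many tissues. Cells labelled as Uhrf1 knockout (KO) were taken before differentiation and after 1, 2 and 3 weeks as EBs. Wild-type (WT) cells of the line E14 were taken at the same 4 stages. Each of these 8 groups holds 1 library. The labels name no separate line or clone for the KO samples. In the study's methods E14 and Uhrf1 KO ESCs are listed side by side as cells obtained from another group. A difference between lines or clones therefore cannot be told apart from genotype here. The study's methods describe 1 culture protocol for both genotypes, on gelatin or feeder-coated plates, without saying which was used for which sample. Uhrf1 binds hemimethylated DNA and recruits the maintenance methyltransferase Dnmt1, and the study asked how its loss alters chromatin and lineage choice.

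In cells with enough oxygen, prolyl hydroxylases of the Egln family mark the hypoxia-inducible factor (HIF) alpha subunits for destruction by the Vhl ubiquitin ligase. When oxygen is scarce the alpha subunits persist, pair with Arnt and bind short DNA elements with the core ACGTG or GCGTG, the hypoxia response element, near genes of glucose uptake, glycolysis, blood vessel growth and pH control. ESCs rely heavily on glycolysis even in air, and many glycolytic genes are also under the control of growth and pluripotency factors such as Myc.

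The stretch just before the transcription start of the members holds such cores. RefSeq promoters (GRCm38.p6) were matched by symbol for 9 of the 10 genes, and 12 annotated starts were searched over the 250 bases before the start on both strands. Slc2a3 was not matched and is named only. ACGTG was found before 8 of the 12 starts, against 16.6% of all 32851 promoters. By gene, 8 of the 9 matched genes had it before at least 1 start. Vegfa had it only before its second annotated start, which lies downstream of its first, so that this window is transcribed from the first start. Of the first promoters of all 27025 genes 16.6% had it, a share that leaves out later starts such as that of Vegfa. GCGTG was found before 6 of the 12 starts, against 28.2% of all promoters. A match is only a run of letters and does not show that a factor was bound. The 6 sequences below are those of the 5 genes that were lower in KO EBs at week 1 and hold ACGTG, and of Slc2a1, which was not lower. Pdk1 was also lower, but its windows hold no ACGTG and are not printed. Since all 6 sequences hold the core, they cannot link it to the KO difference. They are written 5′ to 3′ toward the start with ACGTG or its reverse complement CACGT in capitals.
Ldha, chr7:46845554-46845803, plus strand: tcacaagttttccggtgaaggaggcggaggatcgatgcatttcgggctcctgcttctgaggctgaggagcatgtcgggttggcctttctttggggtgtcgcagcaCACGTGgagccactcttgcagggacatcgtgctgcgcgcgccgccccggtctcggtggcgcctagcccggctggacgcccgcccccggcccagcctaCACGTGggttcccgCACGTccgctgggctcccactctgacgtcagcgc
Pgk1, chrX:106186850-106187099, plus strand: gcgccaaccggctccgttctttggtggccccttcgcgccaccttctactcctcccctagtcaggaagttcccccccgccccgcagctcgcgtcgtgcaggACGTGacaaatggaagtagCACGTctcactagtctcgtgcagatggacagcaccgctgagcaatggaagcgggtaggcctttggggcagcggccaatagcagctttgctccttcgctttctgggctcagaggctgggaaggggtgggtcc
Bnip3, chr7:138909507-138909756, minus strand: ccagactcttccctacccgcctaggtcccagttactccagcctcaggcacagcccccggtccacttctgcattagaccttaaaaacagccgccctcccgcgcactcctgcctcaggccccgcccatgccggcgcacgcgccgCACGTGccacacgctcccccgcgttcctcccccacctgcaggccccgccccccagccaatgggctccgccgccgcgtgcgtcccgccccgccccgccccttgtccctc
Ddit4, chr10:59951771-59952020, minus strand: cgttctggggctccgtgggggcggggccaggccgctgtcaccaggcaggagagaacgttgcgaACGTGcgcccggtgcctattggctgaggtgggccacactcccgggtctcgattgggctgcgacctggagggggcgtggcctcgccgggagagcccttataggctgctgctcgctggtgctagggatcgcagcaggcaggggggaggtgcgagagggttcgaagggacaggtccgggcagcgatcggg
Egln3, chr12:54203875-54204124, minus strand: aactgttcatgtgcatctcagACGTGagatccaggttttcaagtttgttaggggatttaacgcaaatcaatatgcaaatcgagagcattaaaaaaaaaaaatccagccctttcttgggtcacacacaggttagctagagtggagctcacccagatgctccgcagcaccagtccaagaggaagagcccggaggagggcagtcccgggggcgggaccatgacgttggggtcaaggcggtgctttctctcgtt
Slc2a1, chr4:119108495-119108744, plus strand: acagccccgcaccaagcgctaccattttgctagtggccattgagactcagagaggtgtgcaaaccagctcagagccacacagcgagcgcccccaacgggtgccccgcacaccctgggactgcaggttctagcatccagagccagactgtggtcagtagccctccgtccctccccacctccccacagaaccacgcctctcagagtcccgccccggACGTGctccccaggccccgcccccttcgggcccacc

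In Ldha the run CACGTG occurs at 2 places, the first starting 145 bases and the other 48 bases before the start. CACGTG reads as ACGTG on both strands and is also the E-box bound by Myc family and Usf factors, so that 2 of the motif matches overlap at each place. Another core in Ldha lies 34 bases before the start. Pgk1 holds 2 cores, 150 and 131 bases before the start. The core of Bnip3 is again CACGTG, 108 bases before the start, with GCGTG matches at 117, 99 and 35 bases. Ddit4 and Egln3 hold 1 ACGTG each, 187 and 229 bases before the start, and that of Slc2a1 lies 36 bases before it. Car9 has 1 at 18 bases, and Vegfa 1 before the second of its annotated starts, at 211 bases. Pdk1 has no ACGTG in these windows and 1 GCGTG, 78 bases before its first start.

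**Figure D1:**
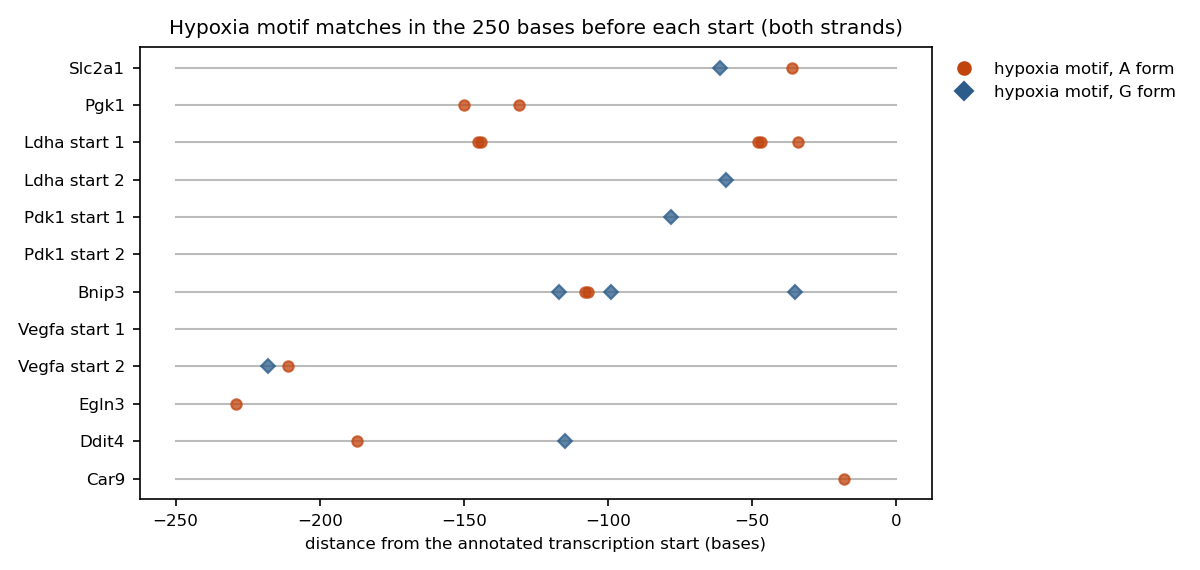
Positions of the hypoxia cores in the 250 bases before each of 12 annotated starts of 9 genes, with distance from the start in bases on the x axis and 1 line for each start. Circles mark ACGTG (A form) and diamonds GCGTG (G form) on either strand, and 8 of the 12 lines carry a circle.

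Expression is given as RPKM, mapped reads scaled to library size and transcript length, so that levels can be compared between genes per unit of length. Estimated depth was 175000000 reads in KO ESCs and 167000000 in WT ESCs, 12600000 to 18900000 in KO EBs and 31700000 to 45700000 in WT EBs. The KO week 1 library was thus the shallowest. Uhrf1 RNA was present in every KO library, at 45.2 RPKM in KO ESCs against 78.8 in WT ESCs and at 27.1 to 34.6 in KO EBs against 36.8 to 43.8 in WT EBs. RNA read from outside a deleted part does not check the label, and the deleted part was not analysed here. Pluripotency markers summed to 1428 RPKM in KO ESCs and 1433 in WT ESCs, and all 5 measured markers were at an RPKM of 1 or more in all 8 libraries.

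Genes were counted as higher or lower in KO where RPKM + 1 differed at least 1.5-fold and RPKM was 1 or more in either library. With 1 library per group no p-value can be given for a single stage. Intervals printed beside ratios of RPKM are 95% exact binomial (Clopper-Pearson) intervals from estimated reads and cover counting error only, not the variation between cultures.

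In ESCs the glycolytic members were among the most abundant RNAs. Ldha ranked first of the 10 in both genotypes, and Ldha, Pgk1, Slc2a1 and Slc2a3 each lay above 99% of all genes. KO and WT ESCs were close. 0 of 10 members were counted as higher and 0 as lower in KO ESCs, against 3.84% and 2.29% of 11053 genes (424 higher and 253 lower, or 345 and 370 with libraries scaled to equal RPKM totals). The log2 ratios of RPKM + 1, KO over WT, ran from 0.04 to 0.54 with a median of 0.22, against 0.04 over all genes. All 10 were positive, or 8 with equal RPKM totals, where Pdk1 and Ddit4 turned negative. In EBs most of the members stood far below their ESC levels, and the genotypes parted at week 1.

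At week 1, 0 of the 9 members detected were higher in KO EBs and 7 were lower, against 8.37% and 6.22% of 11569 genes (968 higher and 720 lower). The 7 were Slc2a3, Pgk1, Ldha, Pdk1, Bnip3, Egln3 and Ddit4. The median log2 ratio of the 9 was -0.88, against 0.01 over all genes. Slc2a1 and Vegfa had positive log2 ratios and were not counted, and Car9 was under an RPKM of 1 in both libraries. At week 2, 1 of 9 was higher (Ddit4) and 1 lower (Slc2a3) in KO EBs, against 10% and 6.42% of 12689 genes (1270 higher and 814 lower, or 1008 and 1093 with equal RPKM totals). At week 3, 1 of 10 was higher (Slc2a1) and 1 lower (Pdk1), against 7.65% and 7.69% of 13050 genes (998 higher and 1003 lower, or 779 and 1392 with equal RPKM totals). The shares at weeks 2 and 3 are near those of all genes. Of the 7 genes lower at week 1, Slc2a3 was the single one that was also counted as lower at week 2, and Pdk1 the single one at week 3.

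**Figure D2:**
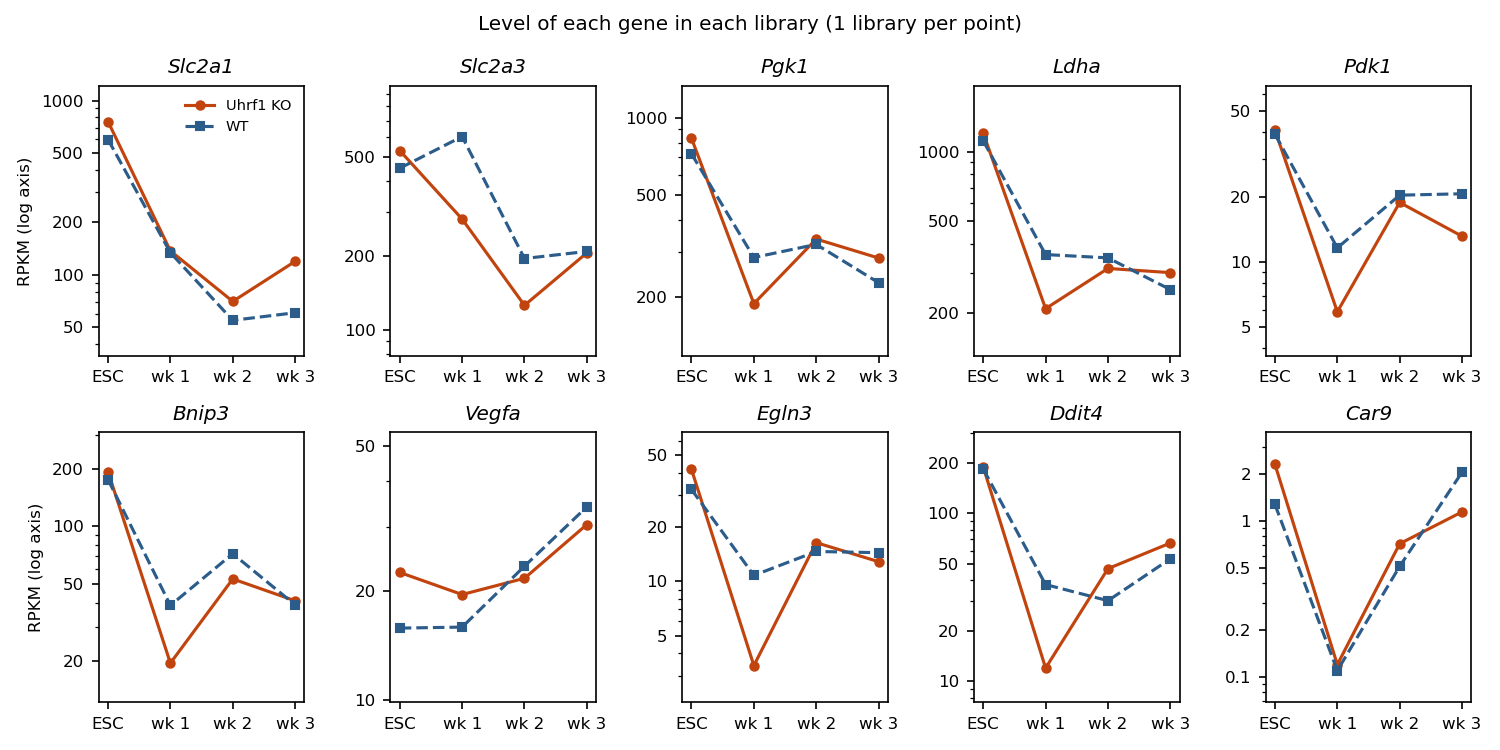
RPKM (log axis, its range set for each gene) of the 10 genes in KO (circles, solid line) and WT (squares, dashed line) ESCs and EBs at weeks 1 to 3, with 1 library per point and no error bars. Egln3 in KO stands at 3.41 at week 1, against 10.8 in WT, and the lines of Pgk1 and Ldha cross at later weeks.

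**Figure D3:**
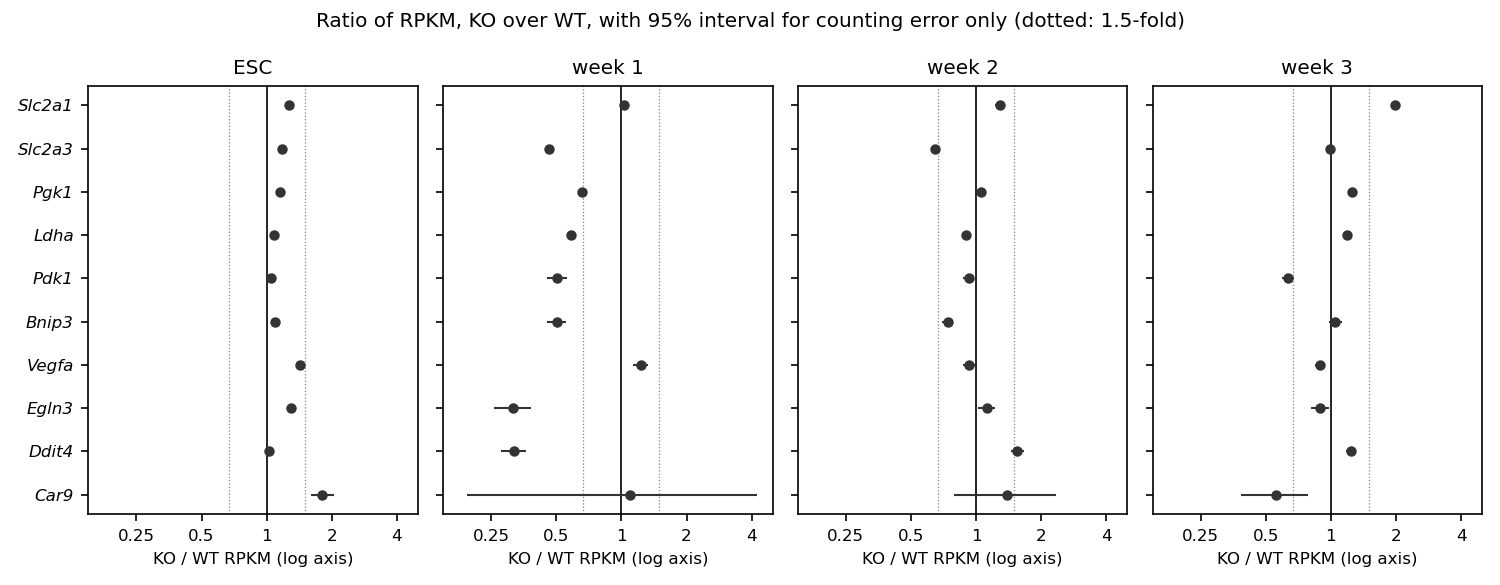
Ratio of RPKM, KO over WT, for each gene at the 4 stages (log axis), with bars for the 95% counting interval and dotted lines at 1.5-fold in either direction. At week 1 the points of 7 genes lie left of the lower dotted line, and the wide bar of Car9 rests on an estimated 3 reads in KO and 10 in WT.

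The RNA of marker genes of several cell types differed between KO and WT EBs at week 1. In bulk RNA this does not tell cell numbers from RNA per cell. Erythroid markers summed to 3280 RPKM in KO EBs and 15394 in WT EBs, with 5 of 6 lower in KO. Cardiac markers were higher in KO EBs for 7 of 7. Yolk sac endoderm and hepatocyte markers summed to 1329 RPKM in KO EBs and 772 in WT EBs, with 2 higher and 3 lower of 5 detected. Pluripotency markers summed to 24.9 RPKM in KO EBs and 39.7 in WT EBs, with 3 of 5 lower. Neuron markers summed to 2.89 in KO EBs and 5.71 in WT EBs, and macrophage markers to 11.9 in KO EBs and 10.7 in WT EBs. Most of these sums came from Stmn2 (1.94 in KO and 3.99 in WT) and Cd68 (8.82 in KO and 6.98 in WT). Neither is restricted to those cells here. Stmn2 had 113 RPKM in KO ESCs and 144 in WT ESCs, and Cd68 61.2 and 43.6. At week 2 the cardiac sums were 465 RPKM in KO EBs and 1185 in WT EBs, and the pluripotency sums 172 in KO EBs and 59.5 in WT EBs. Neuron markers at week 2 summed to 31.4 RPKM in KO EBs and 13.5 in WT EBs, with 2 of 3 detected higher in KO and 0 lower. Yolk sac endoderm and hepatocyte markers then summed to 1683 RPKM in KO EBs and 6956 in WT EBs, with 5 of 6 lower in KO, and macrophage markers to 53.1 in KO EBs and 142.9 in WT EBs, with 5 of 5 lower. At week 3 the yolk sac and hepatocyte sums were 173 RPKM in KO EBs and 1549 in WT EBs (6 of 6 lower), the neuron sums 53.3 in KO EBs and 124.9 in WT EBs (4 of 4 lower), and the cardiac sums 331 in KO EBs and 666 in WT EBs (5 of 6 detected lower). Pluripotency markers at week 3 summed to 316 RPKM in KO EBs and 365 in WT EBs, and erythroid markers to 173.1 in KO EBs and 99.6 in WT EBs. The part of these cell types in the levels of the 10 genes was not tested.

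Slc2a1 encodes Glut1, the glucose transporter of most proliferating cells and of erythroid cells. Its RPKM was 757 in KO ESCs and 137, 70.4 and 119.5 in KO EBs at weeks 1, 2 and 3, against 597 in WT ESCs and 134, 54.8 and 60.6 in WT EBs. It was higher in KO at all 4 stages, with the largest ratio at week 3 (1.97, interval 1.90 to 2.05) and a ratio at week 1 whose interval spans 1 (1.02, 0.990 to 1.06). Slc2a1 is the only member that was counted as higher at week 3. The gene lies on chromosome 4 (mm9, 118781316 to 118809935, plus strand) and overlaps the annotated antisense transcripts Gm12867 and Gm12868, whose reads cannot be told apart from its own where strand was not used in counting.

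Slc2a3 encodes Glut3, a transporter of high affinity for glucose. The RPKM was 530.4 in KO ESCs and 281, 126 and 205 in KO EBs at weeks 1 to 3, against 450.2 in WT ESCs and 604, 195 and 208 in WT EBs. WT EBs at week 1 held more Slc2a3 than WT ESCs, while the KO level at week 1 was under that of KO ESCs. The gene was 2.15-fold lower in KO at week 1 (interval 2.12 to 2.18) and 1.55-fold lower at week 2 (1.52 to 1.57), and at week 3 the interval of the ratio spanned 1 (0.987, 0.971 to 1.00). Slc2a3 is on chromosome 6 (122677827 to 122751658, minus strand), where its annotated span also holds the pseudogene Gm4482, so its level is uncertain to the extent that reads were shared.

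The balance of the 2 transporters differed between the KO and WT libraries of EBs. Slc2a3 over Slc2a1 was 0.70 in KO ESCs and 2.04, 1.79 and 1.72 in KO EBs at weeks 1 to 3, against 0.75 in WT ESCs and 4.51, 3.55 and 3.43 in WT EBs. Both genotypes held more Slc2a1 as ESCs and more Slc2a3 as EBs, and the ratio was lower in KO at 4 of 4 stages. The ranges over the 3 weeks did not overlap between KO EBs and WT EBs. The same held for 10.1% of single genes fitted, and no such share was worked out for ratios. For the other ratios between related genes given below, the ranges overlapped. Weeks are not replicates, so no test was made. Such a ratio within a library does not depend on how libraries are scaled, and it shows unequal change without saying which gene moved. Over the other facilitative sugar transporters, 1 of 4 detected at week 1 was higher (2 with equal RPKM totals) and 0 lower in KO EBs. The gene was Slc2a2, the transporter Glut2 of liver and yolk sac, at 1.51 RPKM in KO EBs and 0.392 in WT EBs. At weeks 2 and 3 it was lower in KO, at 1.67 and 0.310 RPKM in KO EBs against 4.99 and 2.66 in WT EBs. Slc2a4, the insulin-responsive transporter, had 5.50 RPKM in KO EBs and 3.40 in WT EBs at week 1, under the threshold.

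**Figure D4:**
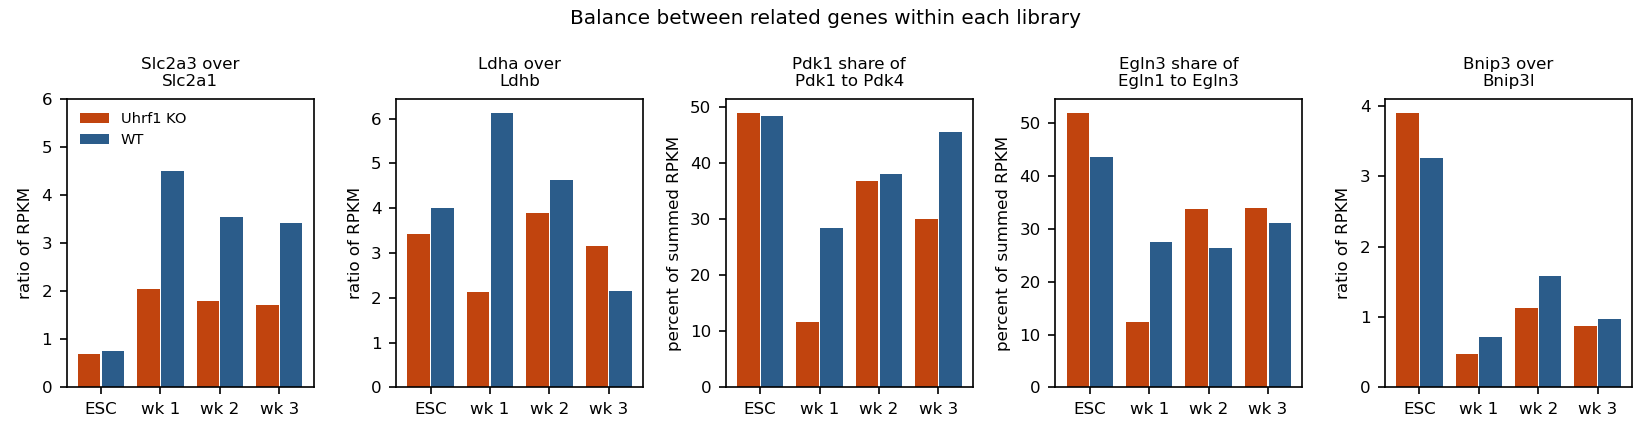
Balance between related genes within each library, with KO bars left of WT bars at each stage and the y axis from 0, as a ratio of RPKM or a percent of summed RPKM. Slc2a3 over Slc2a1 was 2.04 in KO EBs at week 1 and 4.51 in WT EBs, and the Pdk1 share at week 1 was 11.7% in KO and 28.5% in WT.

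Pgk1 encodes phosphoglycerate kinase, which makes the first ATP of glycolysis, and Ldha encodes the lactate dehydrogenase subunit that favours the reduction of pyruvate to lactate. Pgk1 had an RPKM of 831 in KO ESCs and 188, 336 and 283 in KO EBs at weeks 1 to 3, against 722 in WT ESCs and 285, 320.3 and 227 in WT EBs. It was 1.51-fold lower in KO at week 1 (interval 1.47 to 1.56), which is close to the threshold, and after rescaling on the median of ratios, the upper quartile or the RPKM total its log2 ratio of -0.60 became -0.58, -0.57 or -0.53 and it was no longer counted. Ldha had an RPKM of 1202 in KO ESCs and 209.8, 313 and 300.3 in KO EBs, against 1114 in WT ESCs and 359, 348 and 254 in WT EBs. Ldha was 1.71-fold lower in KO at week 1 (1.66 to 1.77). At week 3 both were above WT in KO EBs, with ratios of 1.25 for Pgk1 and 1.18 for Ldha. Pgk1 is on the X chromosome (103382439 to 103399038, plus strand) and Ldha on chromosome 7 (54096845 to 54110997, plus strand). Both have processed pseudogenes in the mouse genome, and how reads shared with them were assigned was not tested.

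Ldhb encodes the heart-type subunit, which favours the reverse reaction from lactate to pyruvate. Ldha over Ldhb was 3.42 in KO ESCs and 2.12, 3.89 and 3.16 in KO EBs at weeks 1 to 3, against 3.999 in WT ESCs and 6.13, 4.63 and 2.14 in WT EBs. The KO ratio was the lowest of its course at week 1, when the WT ratio was at its highest. At that stage Ldhb itself was 1.69-fold higher in KO EBs, at 98.9 RPKM against 58.6 in WT. Cardiac muscle markers summed to 3957 RPKM in KO EBs at week 1 and 1022 in WT EBs, and the part of cardiac cells in these ratios was not tested.

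Among the other glycolytic enzymes and lactate transporters, 19 of 21 listed genes were in the table and all 19 were detected. At week 1, 2 were higher (Hk1 and Ldhb) and 5 lower in KO EBs, with a median log2 ratio of -0.05 over the list, or 0.01 with equal RPKM totals. Hk1, the first enzyme of glycolysis in heart and brain, had 37.4 RPKM in KO EBs and 17.9 in WT EBs. Pfkfb4, which makes the activator of phosphofructokinase, was 4.52-fold lower in KO, at 1.54 RPKM against 6.93 in WT. Slc16a1, the lactate transporter Mct1, was 1.69-fold lower, at 91.3 RPKM in KO against 154.5 in WT. Slc16a3, the lactate exporter Mct4, was lower in KO at week 1 (11.8 RPKM in KO and 20.3 in WT) and higher at week 2 (25.1 RPKM in KO and 14.1 in WT) and at week 3 (25.03 in KO and 14.8 in WT), and it was the single gene of the list that was counted at weeks 2 and 3. With equal RPKM totals 4 genes were lower at week 1, and 1 was lower at week 2.

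Pdk1 encodes pyruvate dehydrogenase kinase, which shuts the entry of pyruvate into the mitochondrial cycle. Levels were 40.8 RPKM in KO ESCs and 5.89, 18.9 and 13.2 in KO EBs at weeks 1 to 3, against 39.1 in WT ESCs and 11.6, 20.4 and 20.7 in WT EBs. Pdk1 was 1.98-fold lower in KO at week 1 (interval 1.78 to 2.21) and 1.57-fold lower at week 3 (1.47 to 1.68). It lies on chromosome 2 (71711281 to 71741915, plus strand). At week 1, 2 of its relatives were higher in KO. Pdk2 had 10.4 RPKM in KO EBs and 3.57 in WT EBs, and Pdk4, the isoform of fasting heart and muscle, had 7.44 in KO EBs and 2.38 in WT EBs. These were the 2 of 10 genes of pyruvate entry that were higher in KO at week 1, and 0 were lower. Pdk1 made up 49.0% of the summed RPKM of Pdk1 to Pdk4 in KO ESCs and 11.7%, 36.8% and 30.0% in KO EBs at weeks 1 to 3, against 48.5% in WT ESCs and 28.5%, 38.1% and 45.6% in WT EBs.

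Bnip3 encodes a mitophagy receptor of the outer mitochondrial membrane. Bnip3 stood at an RPKM of 192 in KO ESCs and 19.5, 53.4 and 41.1 in KO EBs at weeks 1 to 3, against 175 in WT ESCs and 38.9, 72.2 and 39.1 in WT EBs. It was 1.99-fold lower in KO at week 1 (interval 1.80 to 2.21) and 1.35-fold lower at week 2 (1.28 to 1.43), which is under the threshold. Bnip3l, its paralog Nix that clears mitochondria from maturing red cells, stayed within 40.3 to 54.7 RPKM in all 8 libraries. Bnip3 over Bnip3l was 3.91 in KO ESCs and 0.47, 1.13 and 0.88 in KO EBs, against 3.27 in WT ESCs and 0.71, 1.58 and 0.97 in WT EBs. Bnip3 thus stood above Bnip3l in ESCs and below it at weeks 1 and 3 in both genotypes. Bnip3 lies on chromosome 7 (146082519 to 146101202, minus strand).

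Egln3 encodes the prolyl hydroxylase Phd3, itself a HIF target that closes a feedback loop. The transcript had 41.7 RPKM in KO ESCs and 3.41, 16.4 and 12.8 in KO EBs at weeks 1 to 3, against 32.2 in WT ESCs and 10.8, 14.6 and 14.4 in WT EBs. It was 3.16-fold lower in KO at week 1 (interval 2.61 to 3.86) on an estimated 114 reads in KO and 1310 in WT. This and the 3.14-fold of Ddit4 were the largest ratios of the 10 genes at that stage, with overlapping intervals. At week 2 the KO level was 4.80 times that of week 1, and the KO ratio to WT was 1.12. Egln3 made up 52.0% of the summed RPKM of Egln1 to Egln3 in KO ESCs and 12.4%, 33.7% and 33.9% in KO EBs, against 43.7% in WT ESCs and 27.5%, 26.3% and 31.1% in WT EBs. Egln1, the main oxygen sensor in most tissues, was also lower in KO at week 1, at 9.25 RPKM against 16.2 in WT, and at week 2, at 20.3 against 31.3. Egln2 had 14.9 RPKM in KO EBs and 12.2 in WT EBs at week 1. Egln3 lies on chromosome 12 (55279968 to 55304847, minus strand).

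Of the rest of the oxygen-sensing machinery no gene passed 1.5-fold at week 1. Of 15 genes listed, which include Hif1a, Epas1, Arnt, Vhl and Hif1an, 0 were higher and 0 lower in KO EBs at that stage, with log2 ratios between -0.31 and 0.28. At week 3, 1 was higher, Epas1, which encodes Hif2a and had 18.8 RPKM in KO EBs and 11.4 in WT EBs, and 0 were lower. With equal RPKM totals Epas1 was no longer counted, and under each of the 3 rescalings Arnt2, a relative of Arnt, was counted as lower, at 5.41 RPKM in KO EBs and 8.49 in WT EBs. HIF alpha subunits are controlled mainly as proteins, which were not measured here.

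Ddit4 encodes Redd1, which restrains mTORC1 under hypoxia, nutrient stress, DNA damage and glucocorticoids. Ddit4 was at 189 RPKM in KO ESCs and 12.001, 46.8 and 66.6 in KO EBs at weeks 1 to 3, against 184 in WT ESCs and 37.7, 30.2 and 53.6 in WT EBs. The KO course held the widest span of the members other than Car9, with the ESC level 15.7 times that of week 1, against 4.87 times in WT. It was 3.14-fold lower in KO at week 1 (interval 2.76 to 3.59). At week 2 the direction had turned, with a KO over WT ratio of 1.55 (interval 1.44 to 1.66), which was under the threshold with libraries scaled by upper quartile or RPKM total. At week 3 the ratio was 1.24. Ddit4 lies on chromosome 10 (59412423 to 59414518, minus strand).

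Other genes share inputs with Ddit4 or act with it on mTORC1. Of 15 measured, 0 were higher and 5 lower in KO EBs at week 1, with a median log2 ratio of -0.41. Chac1, a target of Atf4 in amino acid and ER stress, had 2.99 RPKM in KO EBs and 8.05 in WT EBs. Sesn2, another stress-induced inhibitor of mTORC1, was 2.01-fold lower in KO (interval 1.82 to 2.23). The paralog Ddit4l had 3.52 RPKM in KO EBs and 7.16 in WT EBs. Cdkn1a, the p53 target p21, was 2.18-fold lower in KO at week 1, at 42.2 RPKM in KO EBs and 91.9 in WT EBs. At week 3 its direction was the opposite and it was the single gene of the list that was counted, at 172.6 RPKM in KO EBs and 99.8 in WT EBs.

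Vegfa, the main growth factor of blood vessels, kept its own course. It had an RPKM of 22.4 in KO ESCs and 19.5, 21.6 and 30.4 in KO EBs at weeks 1 to 3, against 15.8 in WT ESCs and 15.9, 23.3 and 34.0 in WT EBs. No stage passed 1.5-fold, and the ratio was 1.42 in ESCs (interval 1.38 to 1.46) and 1.23 at week 1 (1.14 to 1.33), then 0.926 and 0.894 at weeks 2 and 3. Vegfa lies on chromosome 17 (46153942 to 46169326, minus strand) and has 14 annotated transcripts, which were not told apart. Of the other ligands and receptors, 0 of 8 detected were higher and 4 lower in KO EBs at week 1, or 3 with equal RPKM totals. Pgf, a ligand of Flt1, had 4.95 RPKM in KO EBs and 11.7 in WT EBs. Vegfc, the lymphatic ligand, had 6.53 in KO EBs and 14.4 in WT EBs. The receptors Flt1 and Nrp1 had 4.29 and 47.4 RPKM in KO EBs, against 7.82 and 73.0 in WT EBs. Endothelial markers were lower at week 1 as well, 4 of 6 past the threshold, with sums of 151 RPKM in KO EBs and 259 in WT EBs. Neither list was lower at week 1 only. At week 2, 3 of 9 ligands and receptors and 4 of 6 endothelial markers were lower in KO EBs, and 0 were higher. At week 3, 1 of 9 was lower and 1 higher, and 1 of 6 endothelial markers was lower and 0 higher. In bulk RNA fewer cells of a type and less RNA per cell cannot be told apart.

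Car9 encodes a membrane carbonic anhydrase that exports acid and is among the most hypoxia-specific HIF targets in human tumours. It was the lowest of the 10 genes in all 8 libraries. It had an RPKM of 2.31 in KO ESCs and 0.1201, 0.715 and 1.14 in KO EBs at weeks 1 to 3, against 1.28 in WT ESCs and 0.110, 0.512 and 2.06 in WT EBs. The ratio of RPKM was 1.81 in ESCs (interval 1.61 to 2.04) and 0.556 at week 3 (0.384 to 0.786), on an estimated 42 reads in KO and 148 in WT. On RPKM + 1 both were under 1.5-fold, and with a pseudocount of 0.1 both passed it, with log2 ratios of 0.81 and -0.79. The intervals at weeks 1 and 2 span 1 (0.193 to 4.23 and 0.791 to 2.35), so no difference was detectable there at this depth. Car9 lies on chromosome 4 (43519838 to 43526601, plus strand) opposite the antisense transcript Gm12454. Of 12 other carbonic anhydrases, 2 were higher and 5 lower in KO EBs of 9 detected at week 1, 2 and 4 of 7 at week 2, and 2 and 2 of 8 at week 3. Car2, the abundant enzyme of red cells, was 4.41-fold lower in KO EBs at week 1, at 22.5 RPKM against 99.0 in WT, and 4.39-fold higher at week 2, at 63.9 in KO against 14.54 in WT. Car3, an enzyme of muscle and fat, ran the other way, at 13.4 RPKM in KO EBs and 4.12 in WT EBs at week 1, and 6.91 in KO EBs and 12.3 in WT EBs at week 2. Car4, a membrane-bound form, was 3.10-fold lower in KO at week 2, at 26.8 RPKM against 83.1 in WT.

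Other textbook HIF targets were listed as well, and 22 were in the table. Of 19 detected at week 1, 1 was higher and 3 lower in KO EBs, with a median log2 ratio of -0.21. The 3 lower ones were Ankrd37 (2.01 RPKM in KO and 6.81 in WT), Hmox1, the haem oxygenase, (19.2 in KO and 49.9 in WT) and Egln1. Adm, the vasodilator peptide adrenomedullin, was higher, at 7.22 RPKM in KO and 3.10 in WT. At week 3, 5 of 21 were higher and 2 lower in KO EBs, or 5 and 4 with equal RPKM totals. Lox, the collagen crosslinking enzyme, had 54.9 RPKM in KO EBs at week 3 and 10.9 in WT EBs, a 5.03-fold difference (interval 4.76 to 5.32). Adm (12.5 RPKM in KO and 5.63 in WT) and Ak4, a mitochondrial adenylate kinase, (20.1 in KO and 9.87 in WT) were also higher, and Ndrg1 was 1.86-fold lower, at 15.2 in KO and 28.2 in WT.

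**Figure D5:**
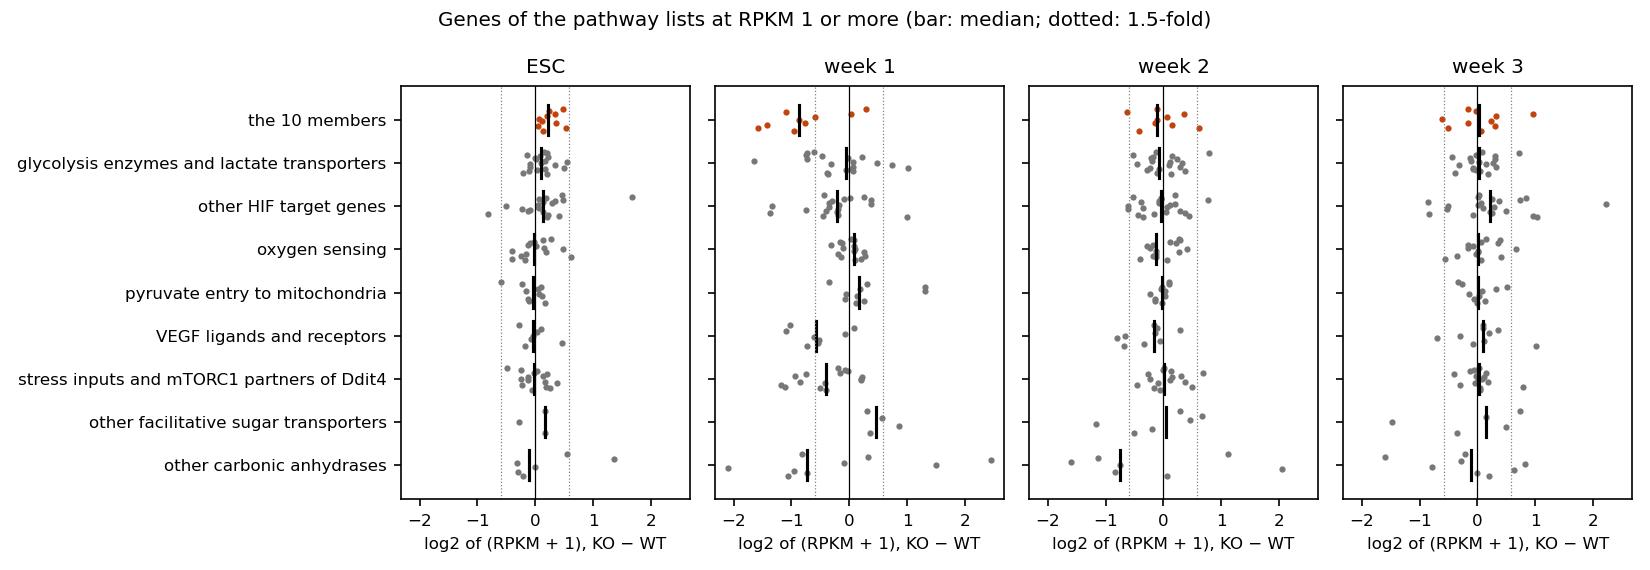
Log2 of RPKM + 1, KO minus WT, for the detected genes of 9 lists at the 4 stages, with 1 point per gene, a black bar at each list's median and dotted lines at 1.5-fold. At week 1 the median of the 10 members (9 detected) is -0.88, and that of the oxygen-sensing genes is 0.08.

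Over all 4 stages, KO was compared with WT in a limma model with stage and genotype terms on log2(RPKM + 1). 0 of the 10 members were called at an adjusted p under 0.05, as were 0 of 13249 genes (0.00%). At an unadjusted p under 0.05 the model gave 1 member and 1984 genes (15.0%). The member was Slc2a1, with a log2 difference of 0.42 (95% interval 0.04 to 0.81, limma adjusted p = 0.309). Slc2a3 had -0.38 (-0.95 to 0.20), Pdk1 -0.38 (-0.81 to 0.04) and Ddit4 -0.15 (-1.06 to 0.75). The ranges of KO EBs and WT EBs over the 3 weeks overlapped for all 10 genes, so 0 of 10 stood apart, against 10.1% of the genes fitted.

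More members changed between ESCs and EBs. In the same model 9 of the 10 members fell in EBs and 0 rose, against 28.7% of 13249 genes that fell and 43.9% that rose. The members' median log2 difference was -1.59, against 0.25 over all genes. The error of this contrast rests on the agreement between the 2 genotypes, since each week has its own term. Stage also goes with depth, at an estimated 175000000 and 167000000 reads in KO and WT ESCs and at most 45700000 in EBs. The part of depth in this contrast was not tested. Slc2a1 fell by 2.89 on the log2 scale (limma adjusted p = 0.000142), Ddit4 by 2.32 (adjusted p = 0.00400), Bnip3 by 2.14 (adjusted p = 0.000559) and Ldha by 1.98 (adjusted p = 0.000570). Egln3 fell by 1.65, Pgk1 by 1.53, Pdk1 by 1.45, Slc2a3 by 1.04 and Car9 by 0.72. Vegfa was the exception, with a difference of 0.30 (interval -0.07 to 0.66, adjusted p = 0.117). 7 of the 10 genes were lower in all 6 EB libraries than in both ESC libraries, as were 26.1% of the genes fitted, the others being Slc2a3, Vegfa and Car9. The calls of Slc2a3 and Car9 depended on single weeks. Without the week 2 pair of libraries Slc2a3 had a log2 difference of -0.74 (adjusted p = 0.0751) and Car9 -0.70 (adjusted p = 0.0544), and without the week 1 pair Car9 had -0.43 (adjusted p = 0.187) and Vegfa 0.49 (adjusted p = 0.0479). Over the alternatives run, the limma adjusted p ran from 0.00333 to 0.0751 for Slc2a3, from 0.00523 to 0.187 for Car9 and from 0.0479 to 0.668 for Vegfa.

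The rest of glycolysis fell with them, 15 of 19 genes against 2 that rose, Slc16a1 and Pfkfb2, with a median log2 difference of -1.70. Aldoa and Gapdh, chosen after their values were seen, fell by 2.87 and 2.56 on the log2 scale (limma adjusted p = 0.000103 and 8.04e-05). Of the other HIF targets 15 of 21 fell and 1 rose, Lox. Of the oxygen-sensing genes 9 of 15 rose and 4 fell, with a median of 0.49. Hif1a, also chosen after its values were seen, had 25.7 RPKM in KO ESCs and 75.8, 56.0 and 50.1 in KO EBs at weeks 1 to 3, against 23.1 in WT ESCs and 81.6, 65.9 and 56.4 in WT EBs. It rose by 1.34 in EBs (adjusted p = 0.000188), while the transcripts of most of its target genes among the members fell. Of the other VEGF ligands and receptors 7 of 9 rose and 0 fell, of the pyruvate entry genes 1 of 10 rose and 3 fell, and of the genes around Ddit4 2 of 15 rose and 6 fell. Of 6 other sugar transporters 4 rose and 2 fell, and of 8 other carbonic anhydrases 6 rose and 0 fell.

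The 10 members held 0.952% of the RPKM total in KO ESCs and 0.207%, 0.246% and 0.256% in KO EBs at weeks 1 to 3, against 0.880% in WT ESCs and 0.338%, 0.287% and 0.239% in WT EBs. KO ESCs were the highest of the 8 libraries for 8 of the 10 genes, as for 19.2% of the genes fitted. With equal RPKM totals this no longer held for Pdk1 and Ddit4, which were then lower in KO ESCs than in WT ESCs. The share over all genes was not worked out at that scaling. KO EBs at week 1 were the lowest for 6, as for 11.6%. Whether the KO effect differed between EBs and ESCs was tested with an interaction term. 0 members were called, against 1 of 13249 genes (0.00755%), and 0 members and 487 genes (3.68%) had an unadjusted p under 0.05. With 2 residual degrees of freedom the intervals were wide, as for Egln3 (-0.83, -2.65 to 0.98) and Slc2a3 (-0.82, -2.06 to 0.43).

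Of the 9897 genes that reached an RPKM of 5 in 2 libraries or more, those with the course most like each member were found by Pearson's r of log2(RPKM + 1). These are descriptions over 8 libraries, of which the 2 ESC libraries stand apart. The glycolytic enzyme Tpi1 was the most like Pgk1 (r = 0.993, and 0.943 over the 6 EB libraries). Egln3 was most like another member, Pdk1 (0.976, and 0.946 over EBs). Bnip3 was most like Sh3bp1 (0.994), Ddit4 like the actin-capping gene Capg (0.989), Ldha like Lrrc42 (0.994) and Slc2a1 like Banf1 (0.994). Slc2a3 was most like Nmnat1 (0.972), Pdk1 like Cdkal1 (0.979), Vegfa like Epb4.1l4a (0.957) and Car9 like 2900011O08Rik (0.972). Slc2a1 and Pgk1, both high in ESCs, had an r of 0.825 over the 8 libraries and of -0.41 over the 6 EB libraries, so their likeness did not extend to the EBs.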

How the data were processed

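Libraries were made from fragmented poly(A) RNA with random priming. Per the submitters' processing notes and the study's methods, the authors used TopHat 1.1.4 with Bowtie 0.12.7 for alignment to mm9, SAMtools 0.1.18, and Cufflinks 1.1.0 for RPKM of RefSeq genes. The authors deposited these values as log2(RPKM + 1), which was turned back into RPKM. All 8 columns were used. Strand use and the assignment of shared reads were not given in the sources used here. Reads were estimated from the steps in RPKM multiplied by transcript length over 5676 genes (GENCODE M1). Since this depth is an estimate, so are the intervals.

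KO was compared with WT at each stage by fold on RPKM + 1 (RPKM 1 or more, 1.5-fold) without a test. limma 3.58.1 (R 4.3.3) with a mean trend was fitted to 13249 genes at RPKM 1 or more in at least 2 libraries (3 residual degrees of freedom, or 2 with the interaction), with Benjamini-Hochberg adjustment over all genes. Its intervals are 95% intervals. With 1 library per group the model takes its error from the stages, and variation between cultures was not measured. Other work used Python 3.11.15, pandas 2.3.3 and scipy 1.17.1. Both procedures were tested on simulated data, with counting error only for the fold calls and with the residual spread of the model for limma. Neither simulation covers the variation between cultures, so they do not show how reliable the KO differences are.

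The members and gene lists were chosen with earlier results of these data known. Of each list the text names up to 4 genes per stage with the largest change at RPKM 5 or more, genes used in ratios, and others where it says so or where a count is small. Listed genes that were not matched to the table (Eno1, Pkm, Higd1a, Mpc1, Mpc2, Nanog, Hba-a1 and Map2) were not analysed here. The alternatives tried were a lower pseudocount (0.1), other filters (none, RPKM 5), 3 rescalings, a 2-fold threshold, no mean trend, and leaving out the pair of libraries of 1 stage.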

Additional observations from a re-analysis of the deposited data

How the results depend on the processing

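No result changed direction past its threshold under any alternative run. Of the members' log2 ratios at single stages recomputed under the alternatives, 264 kept their side of the threshold, 13 dropped under it and 3 newly passed it. Of the members' limma values, 273 kept their side, 3 dropped under it and 1 newly passed it. With a 2-fold threshold the members lower in KO numbered 3 at week 1 and 0 at weeks 2 and 3, and those higher 0 at weeks 2 and 3. Those 3 were Slc2a3, Egln3 and Ddit4. With a pseudocount of 0.1, 1 member was higher in KO ESCs and 2 were lower at week 3, through Car9. With equal RPKM totals 2 were lower at week 3 and 0 higher at week 2, and with upper quartile scaling 0 were higher at week 2, where Ddit4 had a log2 ratio of 0.58 or, with equal totals, 0.50. At week 1 each of the 3 rescalings left 6 lower members, without Pgk1. Equal RPKM totals moved the median of all genes by -0.10 at week 2 and -0.12 at week 3.

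Over all genes, a 2-fold threshold gave 113 higher and 36 lower of 11053 in KO ESCs, and 395 and 228 of 11569 at week 1. It gave 521 and 310 of 12689 at week 2, and 426 and 386 of 13050 at week 3. A pseudocount of 0.1 gave 690 and 411 in ESCs. A filter at RPKM 5 gave 278 higher genes in ESCs, 528 at week 1 and 705 at week 2, and 662 higher and 538 lower at week 3. The genotype model called 6 genes without the ESC pair, and the interaction called 0 with no filter or no mean trend. For KO against WT over stages and for the interaction, 0 members were called under every alternative run. Between 7 and 9 were called in EBs against ESCs. Stage is a term of the model, and no other paired analysis was possible because each group has 1 library.

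Depth limits Car9 most, and Egln3 in KO EBs at week 1. Recomputing 80 counting intervals at lower or higher estimated depths moved 1 across 1, that of Slc2a3 at week 3. How far cultures of 1 genotype differ is unknown, so the week 1 differences compare 2 libraries, not 2 conditions.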
